A study of Bos taurus with 4 samples.

Results

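Broad H3K4me3 domains that carry no H3K27me3 were described in bovine embryonic stem cells (bESCs), from lists of enriched regions (peaks) made from CUT&RUN libraries on the assembly ARS-UCD1.2. The domains were defined by their width and by the absence of the second mark. H3K4me3 peaks sharing 1 bp or more with the second replicate's list were merged into regions, and a region entered the set when it was 5000 bp or wider and overlapped no H3K27me3 region made the same way. On chromosomes 1 to 22 and 24 to 29 the rule returned 2698 of 17728 H3K4me3 regions, which is 15.2% of all of them and 20.2% of those without H3K27me3. That second share was 13.7% without replicate 1 and 12.1% without replicate 2 of both marks. Together they covered 18.1 Mb, or 0.743% of the length of these chromosomes. Width and the overlap with H3K27me3 therefore chose the regions, and neither is a finding here.

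H3K4me3, trimethylation of lysine 4 on histone H3, is written by the SET1 and MLL methyltransferases and is found mostly around the start sites of genes that are transcribed or poised for it. At most promoters it covers only a few nucleosomes, while at some genes, often those that define a cell type or are transcribed strongly, it spreads over a much longer stretch. H3K27me3, trimethylation of lysine 27, is written by the Polycomb complex PRC2 and is linked to repression. In pluripotent cells many promoters of developmental genes carry both marks and are called bivalent, so broad H3K4me3 without H3K27me3 is the part of the broad class that is not bivalent by these lists.

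The labels describe bESCs derived from 1 female blastocyst made by in vitro fertilization and taken at day 7, grown on mouse embryonic fibroblasts in N2B27-type medium with 20 ng/mL FGF2, 2.5 μM of the WNT pathway inhibitor IWR-1 and 1% bovine serum albumin, and named a line after 4 passages. The study's own text speaks of independent lines for the replicates, and the sources used here do not say which replicate is which line, so the replicates may share a single derivation. The 4 libraries were 2 of H3K4me3 and 2 of H3K27me3, each from about 50000 cells after depletion of the fibroblasts with feeder-removal beads. There was no treated group and no control library is stated, so no test between conditions was possible and replicate values are set beside those of the merged regions where each list gives one. On the chromosomes used, the H3K4me3 lists held 21407 and 19839 peaks over 58.7 and 58.8 Mb, and the H3K27me3 lists 15046 and 14221 peaks over 170.8 and 184.7 Mb. The lists state no read depth, and a stretch with no peak is one that the list does not name, which is not proof that the mark is absent.

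NANOG, TGFBR1 and SBDS could be placed at broad domains, from the study's browser panel on the same assembly, read by eye. The domain at NANOG, the homeodomain factor that marks pluripotent cells, lay at chr5:101409801-101417600 and was 7.8 kb wide. In replicate 1 it ran from 101409801 to 101417400 and in replicate 2 from 101410001 to 101417600, as 2 peaks summing to 7.2 kb in each list. Its best peak had a score of 920 in replicate 1 and 939 in replicate 2, higher than 94.6% and 95.9% of the peaks of those lists. Such ranks are common among the domains, whose medians were 92.9 and 92.2. Domains of 7000 to under 10000 bp, the width class of this one, had medians of 96.5 and 96.2. The nearest H3K27me3 region was 541.8 kb away, and the next broad domain without H3K27me3 began 30.2 kb to the right. Within 100 kb there were 5 other H3K4me3 regions, of which 1 was broad without H3K27me3. The gene table of the later assembly ARS-UCD2.0, used only for gene order, puts DPPA3 and SLC2A3 on either side of NANOG.

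The domain at TGFBR1, the type I receptor through which TGF-beta activates SMAD signalling, lay at chr8:64105401-64113000. It was a single peak in both lists, of 7.4 kb with a score of 1165 in replicate 1 and of 6.4 kb with a score of 982 in replicate 2. Those scores exceeded 97.6% and 96.4% of their lists. It was also isolated, with no other H3K4me3 region within 100 kb and the nearest H3K27me3 region 126.2 kb away, and its neighbours by gene order were COL15A1 and ALG2. The domain at SBDS, a ribosome maturation factor used in every cell, was narrower and lay at chr25:28375201-28381000. Its peak measured 5.2 kb with a score of 705 in replicate 1 and 5.8 kb with a score of 721 in replicate 2, at the 88.3rd and 90.4th percentiles. H3K27me3 was closest here, with a region 14.2 kb from the edge of the domain, 19.6 kb away in replicate 1 and 14.2 kb in replicate 2. Thus the pluripotency gene and the receptor gene ranked above the housekeeping gene in both lists, as a description of 3 regions. The score is higher in wider peaks, and the domain at SBDS was the narrowest of the 3. Domains of 5000 to under 7000 bp had median score percentiles of 90.9 and 90.0, and those of 7000 to under 10000 bp had 96.5 and 96.2. The ranking of the 3 genes is therefore not separate from the width of their domains.

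**Figure D1:**
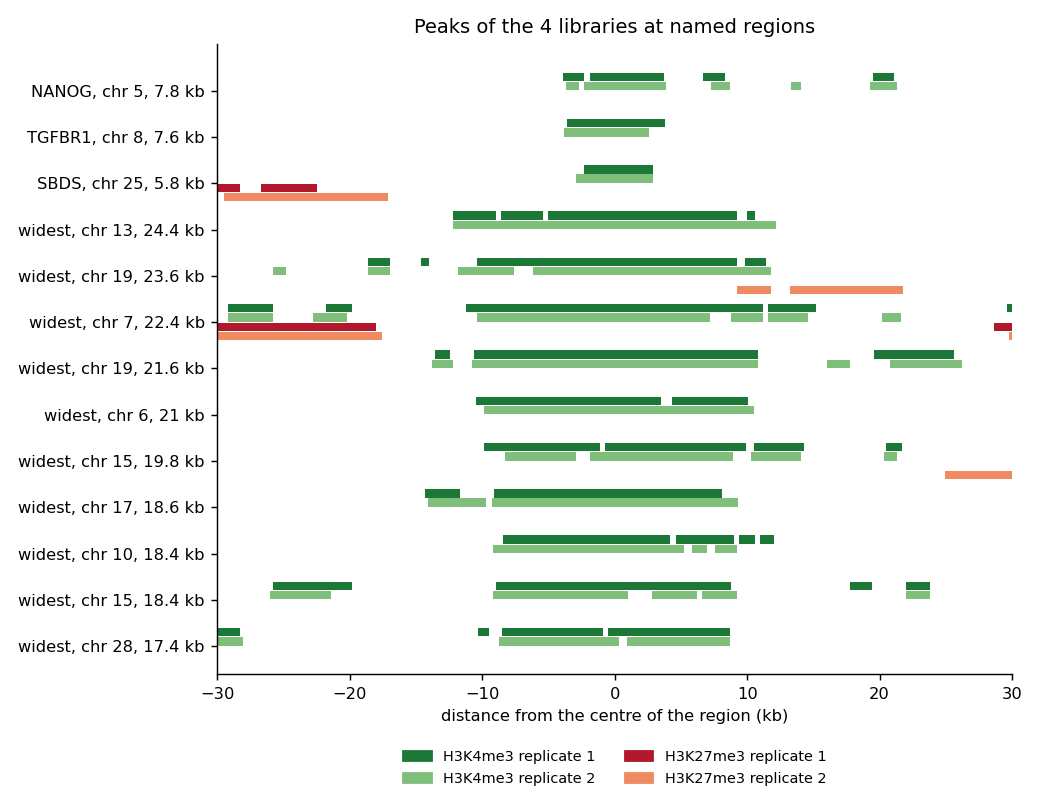
Peaks of the 4 libraries around the domains at NANOG, TGFBR1 and SBDS and around the 10 widest domains, drawn by distance from the centre of each domain in kb, with 1 bar per peak and 1 colour per library. Green H3K4me3 bars of both replicates cover each centre, while red and orange H3K27me3 bars lie outside the domains, except for a replicate 2 peak at the right edge of the 23.6 kb domain on chromosome 19, from 9.2 to 11.8 kb right of its centre.

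The distribution of domain widths was similar in both libraries, in a set chosen by merged width. The merged regions had a median width of 6000 bp, with quartiles of 5400 and 7200 bp and a maximum of 24400 bp. Summed over the peaks of each list, the median was 5600 bp in both replicates, with quartiles of 5000 and 6800 bp in both. The summed width ranged from 2200 to 22400 bp in replicate 1 and from 1600 to 24400 bp in replicate 2. Replicate 2 was the wider at 1331 domains, replicate 1 at 1099, and 268 were equal. Across the 2698 domains the rank correlation of the replicate widths was 0.72, a description over regions of the same 2 libraries.

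A single peak of 5000 bp or more was listed at 1977 domains (73.3%) in replicate 1, at 2065 (76.5%) in replicate 2, and at 1551 (57.5%) in both. In 940 domains only 1 library reached that width, and in 207 (7.67%) neither did, so that the union of both libraries made the region broad. The domains just inside the limit, 5000 bp wide, numbered 319 and had median score percentiles of 87.8 and 87.0 in the replicates. Those just outside it, 4800 bp wide, numbered 324 with 85.6 and 84.0, so the values changed by small steps across the limit.

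**Figure D2:**
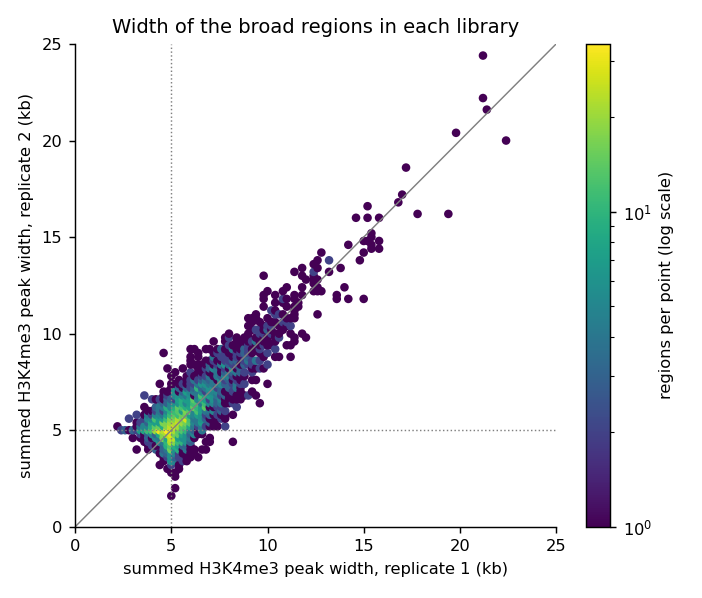
Summed H3K4me3 peak width in replicate 1 (horizontal axis, kb) and replicate 2 (vertical axis, kb) for the 2698 broad domains without H3K27me3, with colour giving the number of domains at each point on a log scale. Points follow the solid line of equality, and those below or left of the dotted 5 kb lines are domains whose summed width is under the limit in 1 library or in both.

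Most domains were listed as 1 peak in each library. The peak caller allowed 1 gap between enriched windows of an H3K4me3 peak, so windows on either side of such a gap were joined. In 2212 domains (82.0%, 95% Wilson interval 80.5 to 83.4) each list held 1 peak, against 94.2% of all H3K4me3 regions without H3K27me3. The share was 97.2% among the 10469 regions of 1000 to under 5000 bp without H3K27me3, called mid-width here, and 66.3% among the 617 broad regions with H3K27me3. At 5000 to under 7000 bp, where both broad classes had a median width of 5600 bp, the share was 89.3% in the domains (interval 87.8 to 90.6) and 72.3% in broad regions with H3K27me3 (interval 67.7 to 76.5). Of the domains split into several peaks, 225 were split only in replicate 1, 189 only in replicate 2 and 72 in both, with at most 4 peaks in a list. All intervals on shares cover counting error only.

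The edges of the domains were placed within a few windows of each other by the libraries. Peaks were called in windows of 200 bp, and the outer edges differed between replicates by a median of 400 bp, with an upper quartile of 600 bp and a maximum of 3.6 kb. Both edges were identical at 88 domains (3.26%), and both were within 1 window at 527 (19.5%), compared with 35.9% of mid-width regions. Of the windows named by either list, a median of 84.8% was named by both, with quartiles of 77.4 and 91.2% and a minimum of 32.0%. The median was 80.0% for mid-width regions and 85.7% for broad regions with H3K27me3, of which 26.1% had both edges within 1 window. An edge difference of a given size takes a smaller part of a wider region. The shared portion therefore depends on the width that chose the domains.

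The score in the lists, a whole number without a stated meaning, was used only as a rank within its own list, taking the best peak of each domain. The domains had a median score percentile of 92.9 in replicate 1 (quartiles 87.5 and 96.3) and 92.2 in replicate 2 (quartiles 86.1 and 96.0). The lowest values were 45.2 and 32.1, and 2677 domains (99.2%) were above the middle of both lists. In 798 (29.6%) the score was in the upper part of both lists, at or above the 95th percentile. The share above the middle of both lists was 58.3% in mid-width regions and 95.0% in broad regions with H3K27me3. The share at or above the 95th percentile of both was 0.0478% and 19.0% in these classes. Mid-width regions had medians of 60.4 and 56.8, and broad regions with H3K27me3 had 86.1 and 85.0. The score comes from the same peaks as the width and is higher in wider peaks, so these values describe the class and test nothing. The rank correlation of the percentiles between replicates was 0.93 over the domains, 0.98 over mid-width regions and 0.92 over broad regions with H3K27me3.

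Divided by the number of 200 bp windows of the peak, the score of the domains had a median of 30.5 per window in replicate 1 and 27.6 in replicate 2. Broad regions with H3K27me3 had 23.6 and 21.1, and mid-width regions 23.7 and 20.9. In percentiles of the list, the domains were at 80.3 and 78.6, broad regions with H3K27me3 at 62.4 and 59.3, and mid-width regions at 62.6 and 58.7. Between replicates, the rank correlation of these percentiles was lowest over the domains, at 0.68. It was 0.91 over mid-width regions and 0.85 over broad regions with H3K27me3. The domains had a higher median than mid-width regions on 28 of 28 chromosomes in both replicates. The difference from mid-width regions came largely from regions under 3000 bp, since regions of 4000 to under 5000 bp without H3K27me3 already reached 78.9 and 77.2. When the lower-scoring peaks of each list were left out, the cut being the list's median, the difference between the class medians, taken over the mean percentile of both replicates in each region, shrank from 18.0 to 2.47 percentile points.

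The score per window was level across the width of the domains. The median percentiles were 80.3 and 78.8 at 5000 to under 7000 bp, 80.2 and 78.0 at 7000 to under 10000 bp, 82.3 and 80.1 at 10000 to under 15000 bp, and 78.7 and 75.6 above that. Accordingly, the rank correlation of width with score per window over the domains was -0.06 in replicate 1 and -0.09 in replicate 2, while over mid-width regions it was 0.58 and 0.56. Regions with H3K27me3 were lower than those without in each width class from 2000 bp upward and in both replicates. At 5000 to under 7000 bp they reached 60.7 and 59.0.

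The share of H3K4me3 regions that overlapped H3K27me3, and so fell out of the set, was 24.7% over all widths and 18.6% at 5000 bp or more. It was 29.8% at 1000 to under 2000 bp, 24.3% at 3000 to under 4000 bp and 17.7% at 4000 to under 5000 bp. At 5000 to under 7000 bp it was 17.4% (390 of 2243, interval 15.9 to 19.0), and at 7000 to under 10000 bp it was 18.1% (149 of 821). At 10000 to under 15000 bp it was 30.0% (64 of 213, interval 24.3 to 36.5), and at 15000 bp and above 36.8% (14 of 38, interval 23.4 to 52.7). Thus the share was lowest at widths of 4000 to under 10000 bp and higher on either side, and each H3K27me3 library alone gave the same dip, although a longer region also has more bases in which to meet a second mark.

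**Figure D3:**
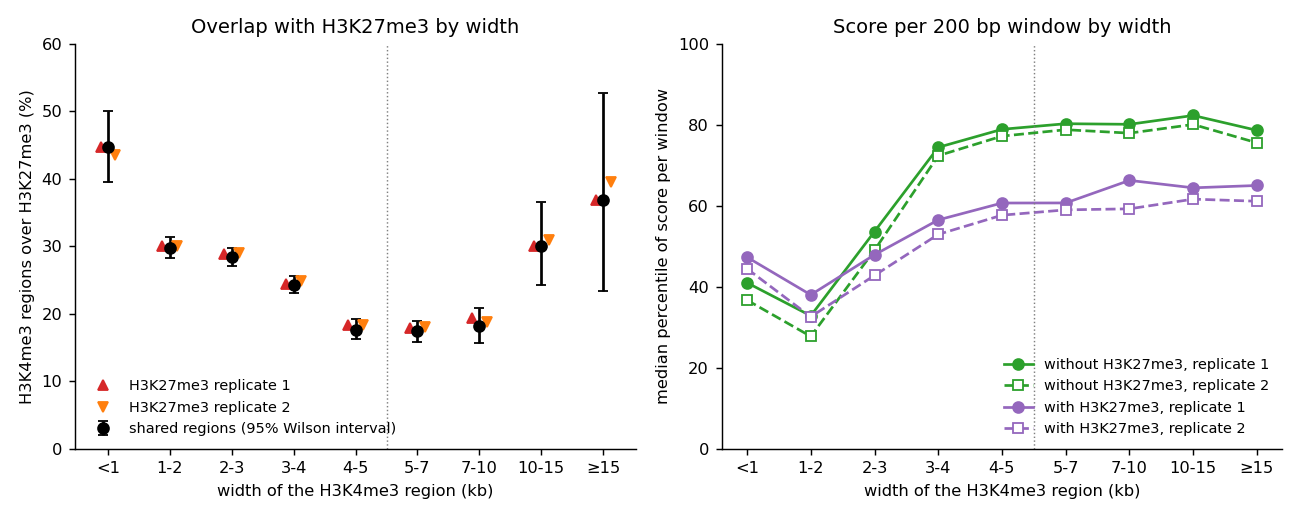
H3K4me3 regions by width class in kb, with the limit of 5 kb as a dotted line. On the left, the percentage that overlapped shared H3K27me3 regions (black, 95% Wilson intervals) or the peaks of 1 H3K27me3 library (triangles) dips to 17.4% at 5 to 7 kb. On the right, the median percentile of score per window without H3K27me3 (green) and with it (purple) in both replicates levels off near 80 and near 60.

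The domains lay farther from H3K27me3 than mid-width regions did. Their median distance from edge to nearest H3K27me3 region was 120.3 kb, with quartiles of 45.65 and 289.2 kb, against 96.2 kb (quartiles 32.2 and 247.6 kb) for mid-width regions. With the peaks of H3K27me3 replicate 1 alone the medians were 109.2 and 83.6 kb, and with replicate 2 alone 102.8 and 77.0 kb. The domains had the larger median on 26 of 28 chromosomes. The distributions overlapped widely, and the rank correlation of width with distance was -0.01 over the domains and 0.02 over mid-width regions. Regions without H3K27me3 that were 4600 and 4800 bp wide had median distances of 111.6 and 110.6 kb. Domains of 5000 and 5200 bp had 106.0 and 131.5 kb, so regions just outside the limit lay about as far away as the narrowest domains.

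The difference was clearest at short range. An H3K27me3 region lay within 5 kb of 77 domains (2.85%, interval 2.29 to 3.55), against 768 mid-width regions (7.34%, interval 6.85 to 7.85) and 6.48% of all H3K4me3 regions without H3K27me3. For the single libraries the shares were 3.85% and 4.48% in the domains and 8.70% and 10.0% in mid-width regions. The share was lower in the domains on 28 of 28 chromosomes. Within 10 kb the shares were 5.60% and 11.4%, within 50 kb 26.9% and 33.2%, and within 100 kb 44.3% and 51.1%. The single libraries kept this order at 100 kb, with 48.0% and 49.2% of the domains and 54.8% and 57.4% of mid-width regions. H3K27me3 was within 50 kb on both sides of 100 domains (3.71%), compared with 753 mid-width regions (7.19%). The rule used overlap and not distance, but a wide region that reached a nearby H3K27me3 region was removed by it, so distance is not fully independent of the rule.

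**Figure D4:**
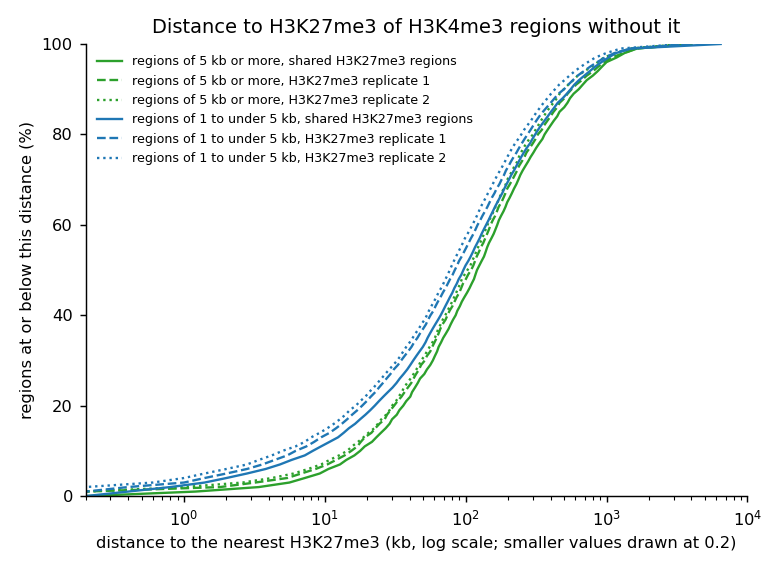
Cumulative percentage of regions (vertical axis) by distance to the nearest H3K27me3 in kb (horizontal log axis), for the 2698 broad domains (green) and the 10469 mid-width regions (blue), with solid lines for shared H3K27me3 regions and broken lines for each library alone. Each green curve lies to the right of the blue curve of the same line style over most of the range, with medians of 120.3 and 96.2 kb for the solid lines.

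The closest and the farthest domains show the range. In 4 domains an H3K27me3 region abutted the edge without overlap, and in 6 it was within 200 bp. Among the former were chr18:25304401-25309800, chr22:13290001-13295000 and chr3:114533801-114538800, each of 5.0 to 5.4 kb. At the other end, the 12.8 kb domain at chr6:49952401-49965200 was 4006.6 kb from the nearest shared H3K27me3 region, and 3443.2 kb from the nearest replicate 2 peak. Its score was 2167 in replicate 1 and 1985 in replicate 2, above 99.7% of both lists. The domain at chr3:62628801-62637400 followed with 3380.4 kb, and that at chr1:24411001-24417400 with 2991.4 kb, where replicate 2 alone listed a peak 1437.8 kb away.

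The absence of H3K27me3 rested on shared regions, and some domains met a peak of 1 H3K27me3 library. This was the case at 57 domains (2.11%, interval 1.63 to 2.73), against 329 mid-width regions (3.14%) and 2.97% of all H3K4me3 regions without shared H3K27me3. Replicate 1 contributed peaks at 27 domains and replicate 2 at 32, and at 2 both lists had peaks that did not meet each other. These peaks ranked low, with a median score percentile of 15.9 in replicate 1 and 14.2 in replicate 2 and maxima of 53.2 and 57.6. Below the middle of their list were 25 of the 27 and 31 of the 32.

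The widest domain was at chr13:62128801-62153200, 24.4 kb long. Replicate 2 listed it as 1 peak of 24.4 kb and replicate 1 as 4 peaks summing to 21.2 kb, and its score per window was moderate, at the 63.5th and 54.5th percentiles. Next was the 23.6 kb domain at chr19:37528201-37551800, with scores of 3276 and 2705. It is 1 of the domains with an H3K27me3 peak of replicate 2 only, and the nearest peak of replicate 1 was 83.6 kb away. The 22.4 kb domain at chr7:12724201-12746600 had shared H3K27me3 6.4 kb from its edge, the shortest such distance among the 10 widest.

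Among the 10 widest, the 21.6 kb domain at chr19:20132001-20153600 was placed most alike by the libraries, which both named 99.1% of its windows. Its scores of 3504 and 3137 were the highest of all the domains in each list. The others were at chr6:12971201-12992200 (21.0 kb), chr15:29503201-29523000 (19.8 kb), chr17:53494801-53513400 (18.6 kb), chr10:33844201-33862600 (18.4 kb), chr15:80965601-80984000 (18.4 kb) and chr28:13806001-13823400 (17.4 kb). Each of their scores exceeded 98.4% of its list.

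High scores also occurred in wide domains that were not among the widest ones named above. The following examples ranked 23 and 20 by width, in that order, so they do not describe short domains. The 15.0 kb domain at chr3:19717001-19732000 had scores of 2923 and 2603, with a score per window at the 96.0th and 99.3rd percentiles, and the 15.4 kb domain at chr18:49097801-49113200 had 2494 and 2365. The 3 lowest domains, by the mean percentile of both lists, were as follows. The domain at chr26:24883201-24888800 scored 141 and 122, and chr29:43609601-43614600 scored 210 and 106. At chr2:119391201-119396200 the peak was 5.0 kb with a score of 220 in replicate 1 and 1.6 kb with 86 in replicate 2, so that 1 library alone made it broad.

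Density differed between chromosomes more for the domains than for H3K4me3 regions as a whole. Over all chromosomes there were 1.11 domains per Mb, with length taken to the last listed peak. Chromosome 19 had the most, 199 or 3.14 per Mb, and held 7.38% of the domains on 2.61% of the length. It was followed by chromosome 25 with 2.48 per Mb and chromosome 18 with 2.31, while chromosome 27 had the fewest, 23 or 0.509 per Mb, just under chromosome 12 with 0.528. Chromosome 19 was highest under each processing alternative, but the lowest was chromosome 12 under 5 of them and chromosome 24 at a limit of 7000 bp, where the highest and lowest densities were 1.198 and 0.0965 per Mb. Counting only domains with a single peak of 5000 bp or more in replicate 1, chromosome 12 had 0.321 and chromosome 27 had 0.398 per Mb. With the rule as given, the highest density was 6.17 times the lowest, compared with 4.09 times for all H3K4me3 regions. Across the 28 chromosomes the densities of domains and of all H3K4me3 regions were ranked alike, with a rank correlation of 0.92.

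As a share of the H3K4me3 regions without H3K27me3, the domains varied less between chromosomes. The share was 23.9% on chromosome 19 (interval 21.1 to 26.9) and 13.3% on chromosome 27 (interval 9.02 to 19.2), a 1.80-fold range, with a median of 19.4%. Its rank correlation with the density of all regions was 0.18. Along the chromosomes, divided into 10 parts of equal length from the first base, the last part held 287 domains (10.6%, interval 9.53 to 11.9) but 16.3% of mid-width regions (interval 15.6 to 17.0) and 15.1% of all H3K4me3 regions. The difference from all regions was -4.47 percentage points, and it was -2.13 when the lower-scoring peaks of each list were left out. The domains had a lower share there than mid-width regions on 27 chromosomes, and their fullest part was the ninth, with 14.8%.

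**Figure D5:**
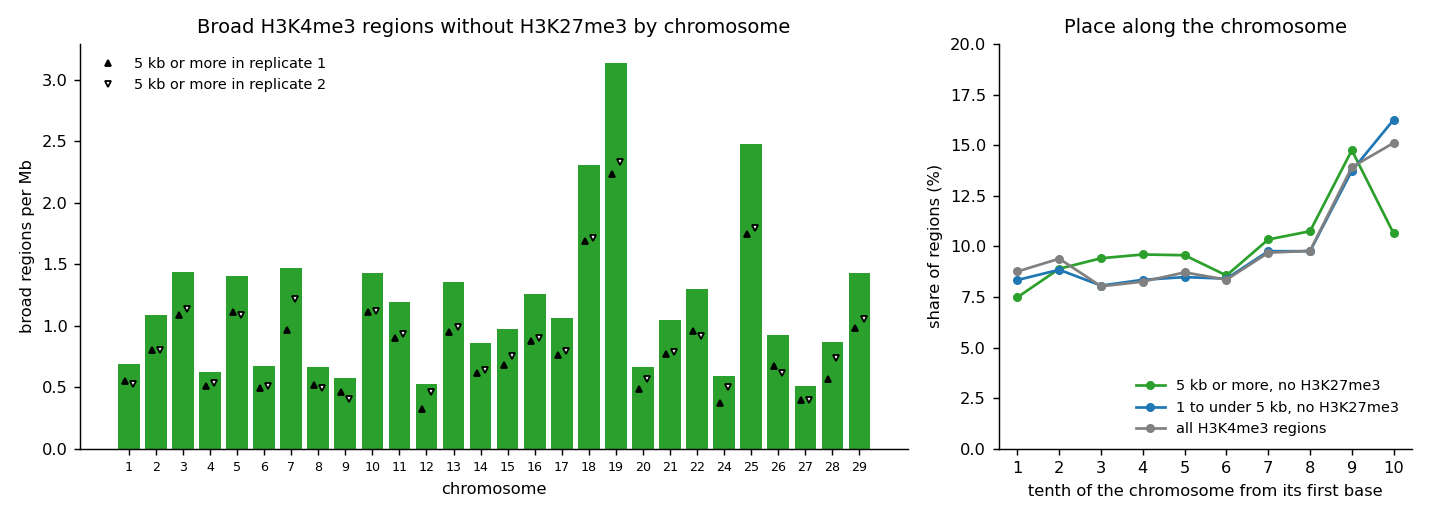
Left, broad domains without H3K27me3 per Mb on each chromosome (bars), with triangles for those whose widest peak is 5 kb or more in replicate 1 or in replicate 2, where chromosome 19 is highest at 3.14 and chromosome 27 lowest at 0.509. Right, the percentage of domains (green), mid-width regions (blue) and all H3K4me3 regions (grey) in each of 10 equal parts of the chromosomes, with 10.6% of domains against 16.3% of mid-width regions in the last.

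H3K4me3 beside the domains was counted next. Another H3K4me3 region lay within 5 kb of 583 domains (21.6%, interval 20.1 to 23.2), against 24.3% of all H3K4me3 regions without H3K27me3, 24.9% of mid-width regions and 40.4% of broad regions with H3K27me3. The flanking region was narrower than the domain at 524 (19.4%, interval 18.0 to 21.0), against 10.2% of mid-width regions (interval 9.66 to 10.8) and 37.3% of broad regions with H3K27me3 (interval 33.6 to 41.2). A mid-width region has fewer regions narrower than itself to meet, so this count depends on the width that chose the domains. The share in the domains ranged from 9.65 to 30.4% under the processing alternatives. Another broad domain without H3K27me3 was within 5 kb of 138 domains, within 50 kb of 833 (30.9%) and within 100 kb of 1228 (45.5%), with no matching share given here for the other classes. The median gap to the next was 289 kb and the longest 16.3 Mb.

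Some domains stood in runs. With gaps of at most 50 kb, 37 runs had 4 or more domains. No matching count is given here for other H3K4me3 regions. Across chromosomes the density of domains followed that of all H3K4me3 regions (rank correlation 0.92). The runs are therefore not shown to be particular to the domains. The longest was chr29:40921001-41197000, with 11 domains of 5.2 to 10.8 kb among 22 H3K4me3 regions in 276.0 kb. Chromosome 19 held a run of 8 at chr19:26920401-27089600, whose widest domain measured 16.0 kb, and a run of 6 at chr19:27293601-27406200. Runs of 7 were at chr10:21788201-21979400 and chr18:55903801-56083800. The smallest distance from a domain of the run to H3K27me3 was 2.4 kb on chromosome 29 and 2.0 kb on chromosome 18. It was 2.8 and 9.2 kb on chromosome 19 and 68.4 kb on chromosome 10. Each is a minimum over all domains of a run, with no matching value given here for other stretches.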

How the data were processed

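Per the labels and the study's methods, the authors trimmed reads (Trim Galore, cutadapt 1.18), aligned them with BWA 0.7.17-r1188 to ARS-UCD1.2, removed duplicates and alignments of mapping quality below 5, and called peaks per library with epic2 (listed as SICER 0.0.41) in 200 bp windows with 1 gap for H3K4me3 and 5 for H3K27me3, an E-value of 500 and an effective genome fraction of 0.7. The deposited lists have 6 columns, and the score in the fifth, made by the authors, has no stated unit, so it was used only as a rank within its list and per window. Read depth is not stated, so the error of single peaks is unknown.

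Regions were built in Python 3.11.15 with numpy 2.4.6, pandas 2.3.3 and scipy 1.17.1. The overlap and merge steps were checked on simulated data and against bedtools 2.31.1. Overlapping or abutting peaks were joined. A region holding several peaks took the score of its best peak. Shares carry 95% Wilson intervals. No p-values were computed, because there is no group to compare and regions are not replicates. The regions, lists and comparisons were chosen with earlier results of these data known. Named regions were those at 3 genes of the study's panel, the 10 widest, the 5 highest and 3 lowest by score, and the 3 closest to and 3 farthest from H3K27me3. The 9 alternatives were either-replicate peaks, each replicate left out, 50% overlap, peaks at or above the median score, exclusion by H3K27me3 of either replicate, windows in both lists, and limits of 4000 and 7000 bp. Applying them to the comparisons with other region classes was decided after seeing the data. The gene table of ARS-UCD2.0 gave only gene order. Sequences and gene contents of the regions were not analysed here.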

Additional observations from a re-analysis of the deposited data

Results flagged for a closer look

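The sequences outside the chromosomes used also held broad H3K4me3 regions without H3K27me3 by the same rule, and they were set apart because no comparison of the report uses them. Chromosome 23 held 217, which is 26.9% of its 808 H3K4me3 regions without H3K27me3 and 4.13 per Mb, a density above the 3.14 per Mb of chromosome 19. Chromosome X held 20 (18.2% of 110, or 0.144 per Mb), below the lowest density of the other chromosomes, 0.509 per Mb. Unplaced sequences held 2 (0.943% of 212). There is no control library to set these values against.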

How the results depend on the processing

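Of 120 values under the alternatives, 54 were classed as within a spread that differed by measure and 66 as moved, and no difference changed sign. For the median score percentile the standard deviation of the replicate medians was 0.488 points, and for the median distance it was 4.53 kb. A value within the spread is not always a small change. The counts of 1978 and 2060 domains with a replicate left out, against 2698, were among the 54. The tally is therefore not a measure of how stable the values are. The cause of the moves was not tested beyond what each alternative changes by construction. The number of domains was 1452 with windows in both lists, 4825 at 4000 bp and 845 at 7000 bp, and 1978 to 2060 with a replicate left out. Their share of regions without H3K27me3 (20.2%) was 16.1% with either-replicate peaks, 12.1 to 13.7% with a replicate left out, 19.1% with 50% overlap, 29.6% above the median score, 9.91% with windows in both lists, 36.1% at 4000 bp and 6.33% at 7000 bp. The median score percentile (mean of the replicates, 92.5) was 93.9 to 94.6 with a replicate left out, 95.7 with windows in both lists, 87.5 at 4000 bp and 96.9 at 7000 bp. The median distance to H3K27me3 (120.3 kb) was 92.8 kb with peaks of either replicate, 108.5 to 117.4 kb with a replicate left out, 204.7 kb above the median score, 92.8 kb with exclusion by either replicate, 130.8 kb with windows in both lists and 115.4 kb at 4000 bp. Its excess over mid-width regions (24.1 kb) was 19.0 kb with either-replicate peaks, 30.1 to 32.2 kb with a replicate left out, 26.6 kb with 50% overlap, 26.4 kb above the median score, 20.8 kb with exclusion by either replicate, 35.2 kb with windows in both lists, 22.0 kb at 4000 bp and 20.5 kb at 7000 bp. The excess in percentile of score per window over mid-width regions (18.0 points) was 29.7 with either-replicate peaks, 19.9 to 21.1 with a replicate left out, 2.47 above the median score, 14.1 with windows in both lists, 25.1 at 4000 bp and 13.1 at 7000 bp, and over broad regions with H3K27me3 (17.9 points) it was 16.5 to 17.4 with a replicate left out, 16.3 with windows in both lists and 16.6 at 7000 bp. The share of broad regions with H3K27me3 (18.6%) was 20.3% with either-replicate peaks, 13.0% above the median score, 20.3% with exclusion by either replicate and 21.2% at 7000 bp. In the last of 10 equal parts of the chromosomes, the share of domains minus that of all regions (-4.47 points) was -2.13 above the median score and -2.72 at 4000 bp. No paired analysis was possible because no result comes from a test. The share of domains that are 1 peak in each list gave no value with a replicate left out, nor did the share met by a single-library H3K27me3 peak, which also gave none where either-replicate peaks define or exclude. Without read depths, a region that misses a list cannot be told from one sampled too thinly.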
